A study of Macaca mulatta with 12 samples.

Results

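The genes described here are 8 genes used as markers of the cerebellum, ZIC1, ITPR1, PCP4, CALB1, CBLN1, SLC1A6, PVALB and GRM4, read in tissue taken as the dorsal raphe nucleus. They are 8 of the 8226 genes that the array reads by a single gene symbol, and every probe set that the platform's probe table assigned to 1 of them alone was included, which gave 12 probe sets of the 12625 on the array. Of these, 9 probe sets, at least 1 for each of the 8 genes, were bright enough to be tested, among 7535 tested in all. The genes had been picked because cerebellar markers stood higher in estrogen-treated than in placebo-treated monkeys in earlier results on these same arrays. The estrogen and placebo values are therefore a description with no test.

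RNA came from female rhesus macaques (Macaca mulatta) that had carried subcutaneous capsules for 1 month: estrogen (3 monkeys), estrogen plus progesterone, called both hormones below (3 monkeys), progesterone alone (3 monkeys) and placebo (3 monkeys). Every array was hybridized with RNA of 1 monkey, and nothing was pooled. The sample codes of the placebo group read OVX, the usual abbreviation for ovariectomized. The titles of the progesterone samples spell out progesterone but carry the codes of the combined group, so these samples were grouped by their source names, P1 to P3. The labels give neither ages nor capsule doses, and do not say what the placebo capsules held.

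The cerebellum lies over the brainstem, across the fourth ventricle from the tissue that holds the raphe nuclei, and is built from few cell types. Granule cells are small excitatory neurons marked by the transcription factor ZIC1, by secreted cerebellin 1 (CBLN1) and by the presynaptic glutamate receptor GRM4. Purkinje cells, the sole output neurons of the cerebellar cortex, are rich in calcium-handling proteins, among them the IP3 receptor ITPR1, calbindin (CALB1), parvalbumin (PVALB) and the calmodulin-binding peptide PCP4, and carry the glutamate transporter SLC1A6. Several of these genes, PVALB, CALB1 and ITPR1 among them, are also used by neurons outside the cerebellum. In RNA from a piece of tissue, fewer cells of a type and less RNA per cell cannot be told apart.

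Values are intensities per probe set on the linear scale, as the authors deposited them, and differences are on a log2 scale after an offset of 8.26 was added and the arrays were quantile normalized. A human array was used, so the brightness of a probe set also depends on how well the macaque transcript matches it, and levels are compared between arrays but never between probe sets. Array medians lay between 74.5 and 87.1. Estrogen array 1 and both-hormones array 1 stood apart from the other 10 arrays, with 841.4 and 1354.4 on the 28S ribosomal RNA control against 64.2 to 179 elsewhere. Of these, estrogen array 1 was also above every placebo array for ZIC1, ITPR1, CBLN1 and SLC1A6, as for 33.9% of all tested probe sets. Both-hormones array 1 was above every placebo array for ZIC1, CALB1, CBLN1 and SLC1A6, as for 30.7%. The part of the ribosomal signal in those values was not tested. The serotonin transporter SLC6A4, a defining gene of raphe neurons, read 220.3 to 494.8 over the 12 arrays, and the serotonin neuron transcription factor FEV read 103.8 to 288.7. The peripheral form of the serotonin-synthesizing enzyme, TPH1, read at most 3.6.

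The clearest pattern was in single arrays. Estrogen array 2 and both-hormones array 2 were high for several of the cerebellar genes, while the other arrays of these groups were lower for most of them, with estrogen array 1 the next highest for ZIC1. ZIC1 read 183, 462.2 and 112.1 on the 3 estrogen arrays, 111.1, 274.7 and 124.6 with both hormones, 163.8, 79.1 and 105.7 with progesterone, and 105.1, 92.8 and 83.8 with placebo. Estrogen array 2 stood 3.13 times above the mean of the other estrogen arrays, and both-hormones array 2 stood 2.33 times above the mean of its own group's others. No other array passed 183.

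Calbindin, the calcium buffer that fills Purkinje cells, followed the same arrays. CALB1 read 71.9, 223.4 and 64.5 with estrogen, 85.9, 113.8 and 71.5 with both hormones, 56.1, 49.9 and 84.2 with progesterone, and 79.1, 71.3 and 64 with placebo. Apart from estrogen array 2 and both-hormones array 2, the 10 arrays lay between 49.9 and 85.9. The 10 arrays hold all of the placebo and progesterone readings. The reading of 223.4 was 3.28 times the mean of the other estrogen arrays, and that of 113.8 was 1.45 times the mean of the other both-hormones arrays.

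ITPR1, the channel that releases calcium from the endoplasmic reticulum, was read by 3 probe sets, which draw on 1 transcript and are not separate evidence. The brightest, 755_at, read 274.2, 333.6 and 187.2 with estrogen, 183.7, 271.1 and 198.4 with both hormones, 222.2, 179.9 and 211.5 with progesterone, and 249.1, 180.2 and 187.9 with placebo. The next, 32779_s_at, read 214.3, 276.1 and 146.3 with estrogen, 139.1, 231.4 and 161.7 with both hormones, 185.6, 142.4 and 169.9 with progesterone, and 176.7, 190.9 and 161 with placebo. On both probe sets array 2 was the highest of the estrogen and of the both-hormones group. The dimmest, 32778_at, was too dim to be tested and read 17.6 to 65.1, with its highest value again on estrogen array 2.

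CBLN1, the synapse organizer that granule cells secrete, read 146.4, 159.5 and 97.3 with estrogen, 128, 173.1 and 91.2 with both hormones, 100.8, 133.8 and 134.3 with progesterone, and 117.3, 89.5 and 116.9 with placebo. Its 2 highest arrays were both-hormones array 2 and estrogen array 2, but estrogen array 1 came close behind. The Purkinje glutamate transporter SLC1A6 read 293.2, 305.1 and 173.6 with estrogen, 274.7, 271.5 and 283.8 with both hormones, 232.8, 176 and 259.4 with progesterone, and 192.9, 248.2 and 206.5 with placebo. It was even across the both-hormones arrays, and its lowest reading of all was estrogen array 3.

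The remaining genes did not share the pattern in both groups. PCP4 read 1034.4, 1072.5 and 1384 with estrogen, 919.6, 1197.5 and 934.6 with both hormones, 988.8, 777.3 and 797.2 with progesterone, and 1002, 1034.5 and 928.4 with placebo, so its highest array was estrogen array 3. PVALB on its bright probe set, 37614_g_at, read 474.6, 905.7 and 991 with estrogen, 894.8, 706.2 and 659.1 with both hormones, 671.8, 893.7 and 492.7 with progesterone, and 608.2, 599.3 and 902.4 with placebo, and estrogen held both its lowest and its highest value. Its other probe sets were too dim to be tested. The first, 37612_at, read 38.2 to 53 with estrogen, 16 to 48.9 with both hormones, 31.1 to 47.5 with progesterone and 48.6 to 69.9 with placebo, and 37613_at read 4.5 to 17.7 over all arrays, close to the offset.

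GRM4 encodes a receptor on the axons of granule cells. It read 2348.4, 2590.1 and 2198.2 with estrogen, 1600.2, 2378.8 and 2630.2 with both hormones, 3148.1, 3020.8 and 2642.7 with progesterone, and 1740, 2982.5 and 2477.7 with placebo. Its highest readings were on progesterone arrays 1 and 2, followed by placebo array 2. Estrogen array 2 was the highest of the estrogen group, but it and both-hormones array 2 were in the middle of the range over all arrays. The 8 genes thus did not all follow 1 pattern on these arrays. Array 2 was the highest of both the estrogen and the both-hormones group for ZIC1, CALB1, ITPR1 and CBLN1. For SLC1A6 and GRM4 this held in the estrogen group only, for PCP4 in the both-hormones group only, and for PVALB in neither. The reason for this difference between the genes was not tested.

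**Figure D1:**
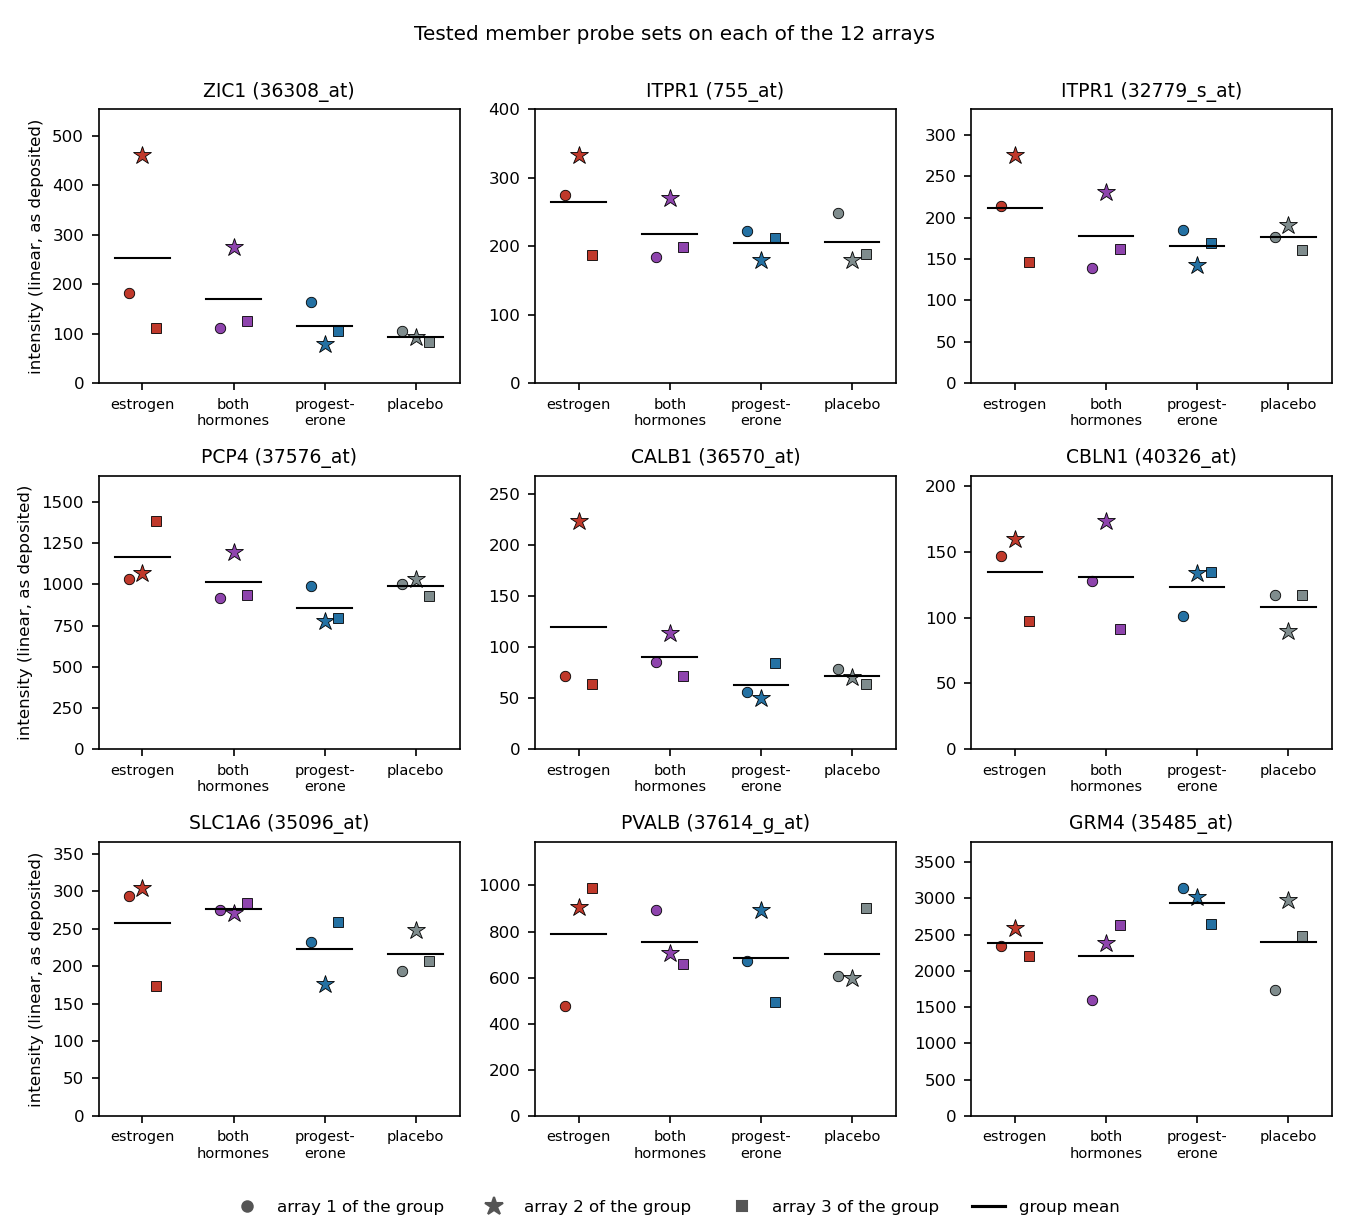
Intensity (linear, as deposited) of the 9 tested probe sets of the 8 cerebellar genes on each array, by group, with a symbol for the array number and a line at the group mean (n = 3). Array 2 (star) of the estrogen and both-hormones groups stands above its group for ZIC1 (462.2 and 274.7), CALB1 (223.4 and 113.8) and both ITPR1 probe sets, and not for GRM4 with both hormones or PCP4 with estrogen.

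Counted over the genes, with the brightest probe set for each, 4 of 8 were highest of all 12 arrays on estrogen array 2, where 7.25% of all tested probe sets were. For 3 of 8 (ZIC1, CALB1 and CBLN1) the 2 highest arrays were estrogen array 2 and both-hormones array 2, against 1.9% of all tested probe sets. Estrogen array 2 stood above both other estrogen arrays for 6 of 8 genes (29.5% of all tested probe sets), both-hormones array 2 above both others of its group for 5 of 8 (32.7%), and both held for 4 of 8 (14.1%). These arrays were singled out after the values were seen, so the counts describe the pattern and do not test it. On estrogen array 2, 7 of 8 genes read above every placebo array (22.3% of all tested probe sets did), and on both-hormones array 2, 6 of 8 did (22.4%). On the other arrays with hormones the number was 2 to 4 of 8, against 21.8% to 33.9% of all tested probe sets.

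The spread of a gene around its group means was large for ZIC1 and CALB1, and not for ITPR1. ZIC1 had a residual SD of 0.644 on the log2 scale, larger than that of 92.2% of tested probe sets, and CALB1 had 0.526, larger than 85.7%. The median of all tested probe sets was 0.297. The tested ITPR1 probe sets had 0.284 and 0.294, SLC1A6 0.255, CBLN1 0.306, GRM4 0.333 and PVALB 0.407. Estrogen array 2 and both-hormones array 2 together held 67.5% of the variance of ZIC1 about its mean over 12 arrays, 72.85% of that of CALB1 and 46.7% and 53.6% of that of the ITPR1 probe sets. The median of all tested probe sets was 8.66%. For GRM4 these arrays held 1.85%, for PVALB 7.67%, for SLC1A6 17.5%, for PCP4 19.2% and for CBLN1 39.3%. PCP4 was the least variable within groups, with a residual SD of 0.17.

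As group means, the estrogen values were higher than placebo for each of the 8 genes on the log2 scale, the direction by which the genes had been picked (49.2% of all tested probe sets were higher). For GRM4 the linear means ran the other way, 2379 with estrogen and 2400 with placebo. ZIC1 averaged 252.4 ± 185.1 with estrogen and 93.91 ± 10.73 with placebo (SD, n = 3), a log2 difference of 1.10 ± 0.45 (SE). The estrogen SD was thus larger than the difference between the means. CALB1 averaged 119.9 ± 89.69 with estrogen and 71.49 ± 7.534 with placebo, a difference of 0.43 ± 0.38. The differences were 0.33 and 0.21 for ITPR1, 0.27 for CBLN1, 0.23 for PCP4, 0.21 for SLC1A6, 0.10 for PVALB and 0.04 for GRM4. ZIC1 was the only gene of the 8 whose estrogen arrays all lay above all placebo arrays, as 2.87% of all tested probe sets did.

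Without estrogen array 2, the ZIC1 difference was 0.57 in place of 1.10 and that of CALB1 was −0.10 in place of 0.43. The median over the 8 genes was 0.25 with all arrays and 0.11 without estrogen array 2, while it was 0.43 without estrogen array 3. The median of all tested probe sets was −0.005. Without estrogen array 1 and both-hormones array 1, the arrays of high ribosomal signal, the median over the genes was 0.28. PCP4 did not depend on estrogen array 2, with 0.28 when that array was left out.

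**Figure D2:**
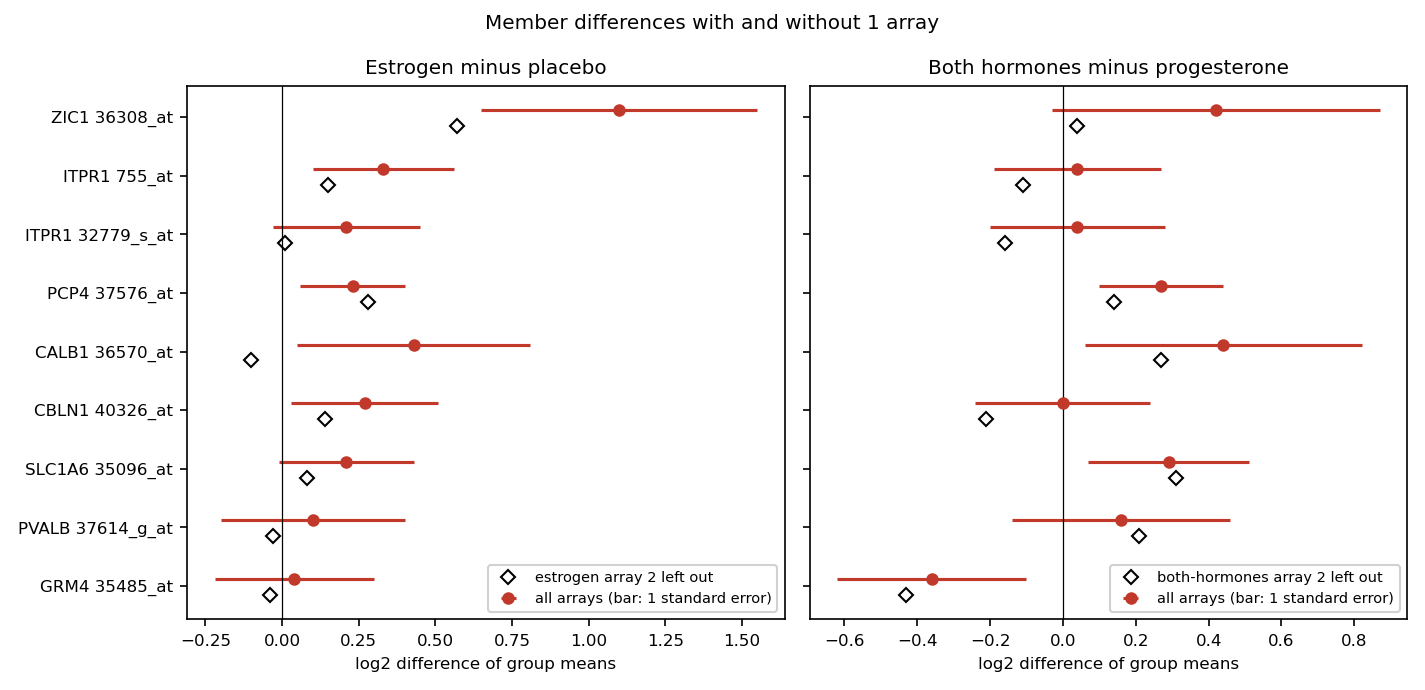
Log2 difference of group means for each tested probe set, for estrogen minus placebo on the left and both hormones minus progesterone on the right. Filled points with bars give all arrays and 1 standard error, open diamonds the value with array 2 of the hormone group left out. On the left ZIC1 is at 1.10 and then 0.57 and CALB1 at 0.43 and then −0.10; on the right ZIC1 is at 0.42 and then 0.04.

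Estrogen was also given on top of progesterone, in arrays that took no part in the choice of the genes. ZIC1 averaged 170.1 ± 90.78 with both hormones and 116.2 ± 43.32 with progesterone (SD, n = 3), and CALB1 averaged 90.42 ± 21.53 and 63.38 ± 18.28 in the same groups. The log2 differences were 0.42 ± 0.45 (SE) for ZIC1 and 0.44 ± 0.38 for CALB1, and neither passed the threshold of 0.05 (limma adjusted p = 0.849 and 0.818). The 95% interval ran from −0.56 to 1.41 for ZIC1 and from −0.39 to 1.26 for CALB1, so a difference as large as that seen with estrogen alone lies inside it. Limma called 0 of the 9 probe sets in this comparison, where 0.0133% of all tested probe sets were called, and 0 of the 9 had an unadjusted p under 0.05, which 7.71% of all tested did.

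SLC1A6 averaged 276.7 ± 6.379 with both hormones and 222.7 ± 42.63 with progesterone, a difference of 0.29 ± 0.22 (limma adjusted p = 0.781). All its both-hormones arrays lay above all progesterone arrays, as for 8.2% of tested probe sets. GRM4 averaged 2203 ± 537 with both hormones and 2937 ± 262.8 with progesterone, −0.36 ± 0.26 (limma adjusted p = 0.781), and all its both-hormones arrays lay below all progesterone arrays, as for 7.82%. PCP4 averaged 1017 ± 156.3 with both hormones and 854.4 ± 116.8 with progesterone, 0.27 ± 0.17 (limma adjusted p = 0.743). PVALB gave 0.16, both tested ITPR1 probe sets 0.04 and CBLN1 0.00.

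The median over the 8 genes for both hormones against progesterone was 0.22, with 7 higher and 1 lower, where 49.7% of all tested probe sets were higher and their median was −0.003. CBLN1, at 0.00, is among the 7. Without both-hormones array 2 the median was 0.09, ZIC1 gave 0.04, CALB1 0.27 and CBLN1 −0.21. Without progesterone array 3 it was 0.14.

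The other comparisons share arrays with the one that picked the genes, and their values are given with that limit. For both hormones against placebo, ZIC1 gave 0.66 ± 0.45 (SE), SLC1A6 0.34 ± 0.22 and CALB1 0.23 ± 0.38, and limma called 0 of 9 (0.0133% of all tested), with 0 of 9 at an unadjusted p under 0.05 (3.38%). The both-hormones arrays of ZIC1 and of SLC1A6 all lay above the placebo arrays, as for 4.43% of tested probe sets. The median over the genes was 0.15, with 7 of 8 higher (49.4% of all tested). It was 0.02 without both-hormones array 2, 0.26 without both-hormones array 3 and 0.25 without placebo array 1. For progesterone against placebo, the values ran from −0.20 for PCP4 and CALB1 to 0.27 for GRM4 with a median of 0.03 and 5 of 8 higher (50.4% of all tested). Limma called 0 of 9 (0.0398% of all tested), with 0 of 9 at an unadjusted p under 0.05 (8.24%).

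For both hormones against estrogen, the differences ran from −0.45 ± 0.45 (SE) for ZIC1 to 0.13 ± 0.22 for SLC1A6, with a median of −0.14 and 2 of 8 higher (50.3% of all tested). Limma called 0 of 9 (0% of all tested), with 0 of 9 at an unadjusted p under 0.05 (2.87%). Without estrogen array 2 this median was 0.07 and ZIC1 gave 0.09, and without both-hormones array 2 the median was −0.29. It was −0.22 without estrogen array 1 or estrogen array 3, and −0.08 without both-hormones array 3. Array 2 is high in both of these groups. Over all tested probe sets, the deviations of same-numbered arrays of these groups correlated at 0.407 for arrays 1, 0.296 for arrays 2 and 0.133 for arrays 3.

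Arrays were put in order by the mean standardized level of the 8 genes. Estrogen array 2 had 1.43 standard deviations and both-hormones array 2 had 0.83, followed by estrogen array 1 at 0.20. The remaining 9 arrays lay between −0.51 (progesterone array 2) and −0.05 (progesterone array 1), and the placebo arrays lay close together at −0.37, −0.35 and −0.34. The 28S control read 64.2 on estrogen array 2, the lowest of all 12 arrays, and 72.1 on both-hormones array 2. On these arrays the ratio of GAPDH signal from the 3′ end to the 5′ end was 1.39 and 1.22. Both lay within the range of 0.892 to 1.46 of the 8 arrays other than these and the 2 with high ribosomal signal. On those 2, estrogen array 1 and both-hormones array 1, the ratio was 2.455 and 2.048, the highest of all 12 arrays. SLC6A4 read 388.4 on estrogen array 2 and 494.8 on both-hormones array 2, with 361.4 to 377 on the other estrogen arrays and 220.3 to 456.2 on the other both-hormones arrays.

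Pairs of the 8 genes were alike over the 12 arrays only in part. Over 28 pairs the Pearson r of normalized log2 values had a median of 0.15, with 20 pairs above 0. It was 0.88 for ITPR1 with ZIC1, 0.81 for CALB1 with ZIC1 and 0.72 for CALB1 with ITPR1, and 0.57 for CBLN1 with ZIC1. Over the 10 arrays other than estrogen array 2 and both-hormones array 2 the same pairs gave 0.73, 0.00, 0.17 and −0.01, so that all but the first rest on those arrays. GRM4 with ZIC1 gave 0.13 and PVALB with ZIC1 0.00. These values are a description, since the genes were picked together and the points share the arrays' scaling.

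Other genes of cerebellar cells, listed with earlier results of these arrays known, moved less. Of 74 listed genes that are not among the 8, 44 were on the array under a single symbol and 33 were tested. Of the 33, 8 were highest on estrogen array 2, and for 6 the 2 highest arrays were estrogen array 2 and both-hormones array 2 (for all tested probe sets 7.25% and 1.9%). The median of the 33 was 0.21 above the placebo mean on estrogen array 2 and 0.23 on both-hormones array 2, and lay between −0.11 and 0.08 on the other 10. For estrogen against placebo the median was 0.086, and 0.01 without estrogen array 2. For both hormones against progesterone the median was −0.007, with 16 higher and 17 lower, where 49.7% of all tested probe sets were higher, and limma called 0 of 33 (0.0133% of all tested).

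By cell type, the 11 tested granule cell genes had medians of 0.24 on estrogen array 2 and 0.10 on both-hormones array 2, and the highest was 0.36, on estrogen array 1. The intensities of the 11 summed to 4407 to 6024 with estrogen, 4415 to 4855 with both hormones, 4351 to 5086 with progesterone and 3960 to 5211 with placebo. The brightest probe sets weigh most in such a sum. GABRD, the delta subunit of GABA-A receptors that granule cells place outside synapses, read 62.7, 195.8 and 99.2 with estrogen, 53.5, 165.2 and 54.9 with both hormones, 85.4, 71.1 and 95.4 with progesterone, and 55.2, 72.3 and 52.5 with placebo. As for ZIC1, array 2 was the highest of the estrogen and of the both-hormones group.

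Of the listed granule cell genes, 4 on the array were too dim to be tested, and they did not share a pattern. GABRA6, a receptor subunit found almost only in granule cells, read 19.5 on estrogen array 2 and between 2 and 9.3 on all others, including 3.3 on both-hormones array 2. ETV1, a transcription factor of maturing granule cells, read 96.7 on estrogen array 2 and 82.5 on both-hormones array 2, its highest readings, with 6.4 as its lowest. The NMDA receptor subunit GRIN2C was not high on either array. It read 32.8 on estrogen array 2, the lowest of the estrogen arrays. On both-hormones array 2 it read 26.8, nearly level with 27.2 on both-hormones array 3. With placebo it read 8 to 34.1. The netrin receptor UNC5C read 9.4 on estrogen array 2 and 8.2 on both-hormones array 2 and was highest on placebo array 1, at 36.5. ZIC2, the close relative of ZIC1, read 88.1, 165.5 and 109.6 with estrogen, 80.6, 150.3 and 137.7 with both hormones, 81.1, 204.9 and 94.7 with progesterone, and 152.8, 198 and 172.8 with placebo. As for ZIC1, array 2 was the highest of the estrogen and of the both-hormones group. Unlike for ZIC1, the highest readings of ZIC2 were on progesterone array 2 and placebo array 2.

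The 15 tested Purkinje cell and interneuron genes had medians of 0.11 on estrogen array 2 and 0.26 on both-hormones array 2. CAMK4, a kinase abundant in granule cells, was counted in this list. Of the 15, ALDOC was by far the brightest and weighs most in their sum. It read 9280.4 to 10072.7 with progesterone and 6987.8 to 8945.8 with placebo, so the sums are not an even measure of the 15. The intensities of the 15 summed to 15777 to 16398 with estrogen, 15690 to 17359 with both hormones, 16550 to 18349 with progesterone and 15073 to 16275 with placebo. Among them TIAM1, an exchange factor for the GTPase Rac, read 475.3, 1266.4 and 609.8 with estrogen, 430.4, 738.3 and 534.4 with both hormones, 641.9, 506.9 and 529.5 with progesterone, and 543.2, 583.3 and 691.1 with placebo. The zebrin gene ALDOC, which Purkinje cells and astrocytes share, read 7466.8 on estrogen array 2 and 7456.9 on both-hormones array 2, among its lower values. The 7 tested Bergmann glia genes, of which AQP4 and SLC1A3 are also astrocyte genes, had medians of 0.17 and 0.19 on these arrays and 0.35 on progesterone array 2 and placebo array 1.

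Of these 33 genes, 3 had all estrogen arrays above all placebo arrays, against 2.87% of all tested probe sets, and 2 had them all below, against 3.22%. FAT2, a giant cadherin of granule cells, averaged 201.5 ± 24.39 with estrogen and 113.7 ± 50.95 with placebo (SD, n = 3), NEUROD2 234.9 ± 64.95 and 126.1 ± 10.96, and HOMER3, a Purkinje cell scaffold protein, 126.6 ± 23.88 and 98.12 ± 9.911. The log2 differences were 0.86, 0.81 and 0.31. The genes below placebo were ATP2B2, a calcium pump, with −0.24 and the inositol kinase ITPKB with −0.18. FAT2 gave −0.41, NEUROD2 0.24 and HOMER3 −0.23 for both hormones against progesterone (limma adjusted p = 0.795, 0.825 and 0.895). For that comparison, EN2, which patterns midbrain and cerebellum, gave 0.68 and HOPX 0.42 with arrays that did not overlap, and ATP2A3 gave −0.39 and ALDOC −0.09 (limma adjusted p = 0.568, 0.709, 0.822 and 0.919). These 2 higher and 2 lower of 33 stand beside 8.2% and 7.82% of all tested probe sets, so the counts are near the background. Against placebo, EN2 and HOPX gave 0.13 and 0.09 with both hormones. With progesterone alone they gave −0.54 and −0.33 (limma adjusted p = 0.661 and 0.796).

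**Figure D3:**
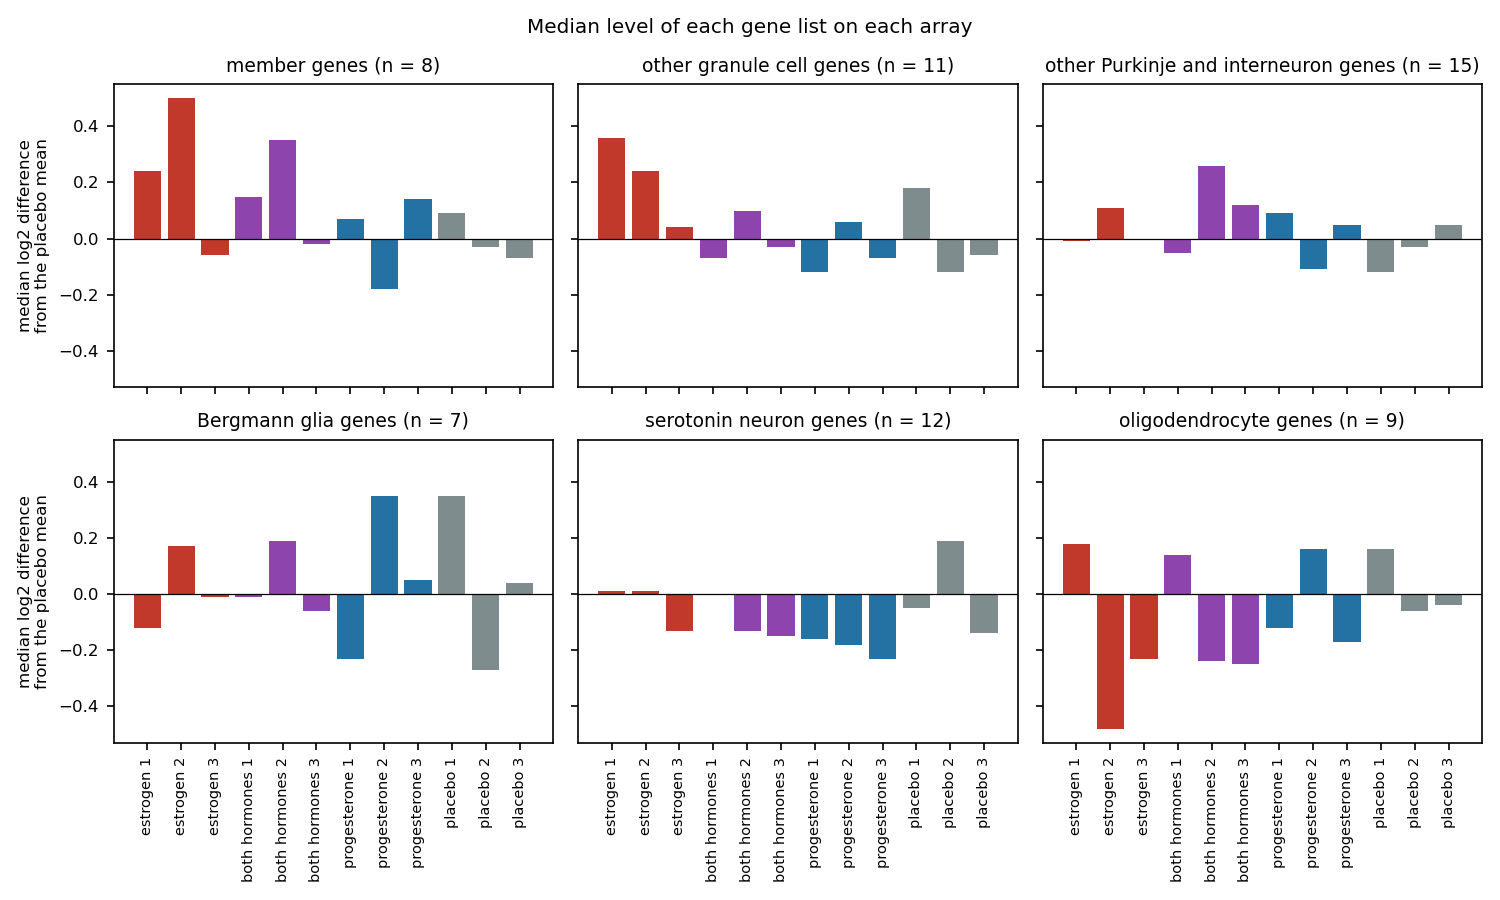
Median over the tested genes of a list of the log2 difference from the placebo mean, for each array (bars, coloured by group) and 6 lists. The cerebellar genes of the report reach 0.50 on estrogen array 2 and 0.35 on both-hormones array 2, while the serotonin neuron genes stay between −0.23 and 0.19 on all arrays and the oligodendrocyte genes are lowest on estrogen array 2, at −0.48.

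Genes of other cell types were read on the same arrays. The 12 tested serotonin neuron genes had a median of 0.01 on estrogen array 2 and −0.13 on both-hormones array 2, within the range of −0.23 to 0.19 over all arrays. The 9 tested oligodendrocyte genes had a median of −0.48 on estrogen array 2, the lowest of all, and −0.24 on both-hormones array 2, with −0.23 on estrogen array 3 and −0.25 on both-hormones array 3. The myelin gene MOBP read 295.7 on estrogen array 2, against 1006.5 and 526.6 on the other estrogen arrays. OLIG2 went the other way, with 255.4 against 187.1 and 183.7, and was the only 1 of the 9 highest of its group on that array. The 5 tested forebrain genes ran differently: their medians were 0.11 on estrogen array 2 and −0.17 on both-hormones array 2, and the highest and lowest were 0.95 on both-hormones array 3 and −1.12 on progesterone array 2. Whether a share of cerebellar tissue in the sample had a part in the high values was not tested.

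The genes most like the 8 were found by Pearson r with their mean standardized level over 12 arrays, among 6671 tested probe sets of other genes. The 10 with the highest r, from 0.897 to 0.786, were all highest on estrogen array 2, and 7 had both-hormones array 2 as the next highest. The level used for the ranking was itself highest on these arrays, so this follows in large part from the ranking. CAMK4, a calcium-dependent kinase abundant in granule cells, took 2 of the 10 places. Its probe set 1421_at read 106, 254.3 and 58.5 with estrogen, 70.6, 95.4 and 56.7 with both hormones, 80.5, 55.5 and 90.3 with progesterone, and 43.6, 60.6 and 65.2 with placebo. A further CAMK4 probe set, 1422_g_at, gave an r of 0.39.

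PTK2B, a calcium-sensitive tyrosine kinase, was dim on most arrays. It read 34.6, 244.7 and 28.4 with estrogen, 32, 126.7 and 90.8 with both hormones, 67.8, 18.6 and 65.5 with progesterone, and 43.5, 25.2 and 38 with placebo. The others were the neuronal repressor ZBTB18 (r of 0.813), TIAM1 (0.807), the neuronal transcription factor NEUROD2 (0.8), GABRD (0.796), the cholesterol-esterifying enzyme LCAT (0.795), the spindle protein SPAG5 (0.787) and the synaptic adhesion protein NPTN (0.786). Second probe sets of TIAM1 and ZBTB18 gave 0.49 and 0.48. Over the 10 arrays without estrogen array 2 and both-hormones array 2, the r of the 10 probe sets lay between −0.188 and 0.721, with CAMK4 1421_at the highest and ZBTB18 the lowest.

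The 3 most opposed were the peptidase gene MME (r of −0.889), the myelin gene MAG (−0.8) and MYCL, a relative of MYC (−0.792). MME read 187.8, 35 and 144.7 with estrogen, 130, 79.7 and 123 with both hormones, 131.7, 205.5 and 226.8 with progesterone, and 147.8, 179.8 and 145.9 with placebo. Its lowest readings were on the same arrays on which ZIC1 was highest, which follows in large part from the ranking by r.

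**Figure D4:**
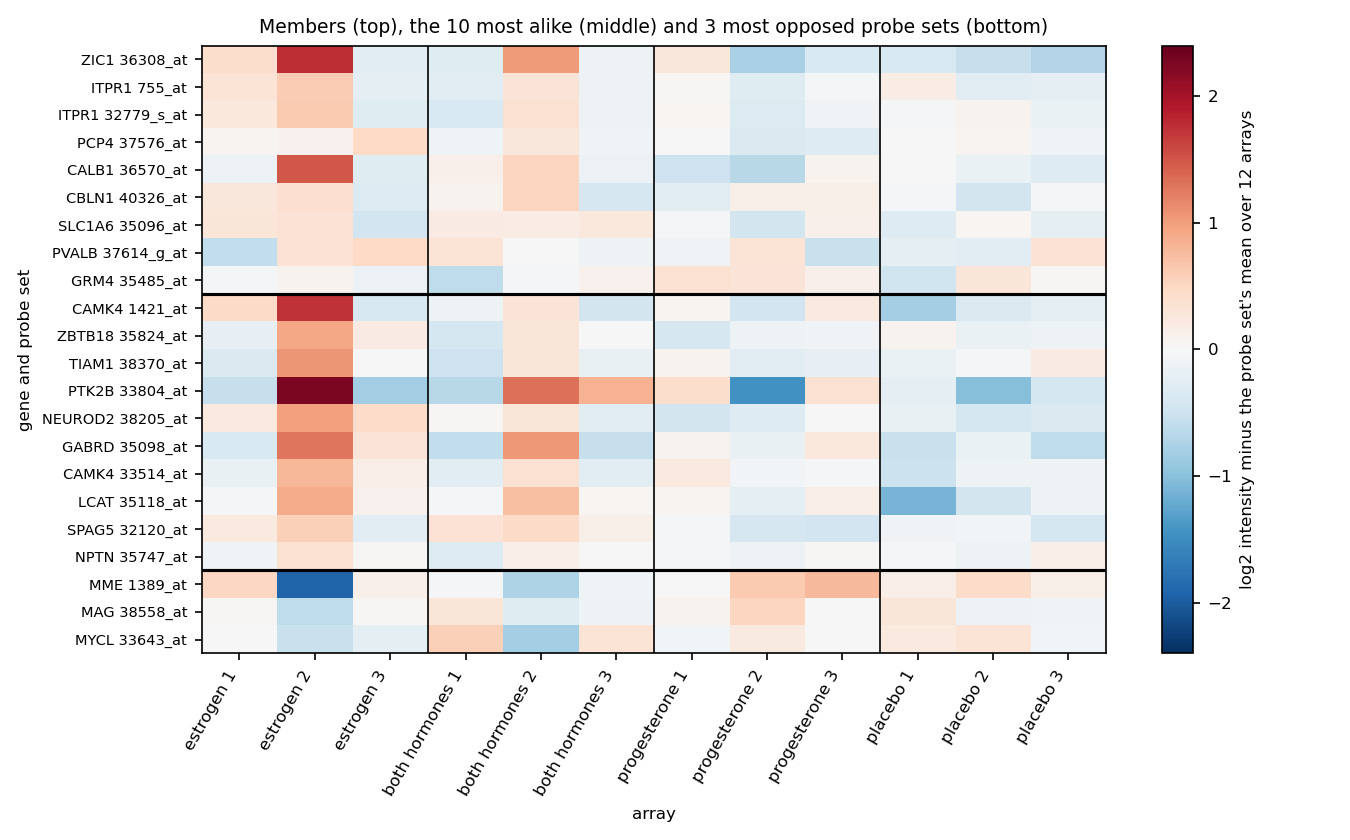
Log2 intensity of each probe set minus its mean over the 12 arrays (colour, red above and blue below), with the arrays in columns by group. The 9 tested probe sets of the cerebellar genes are on top, the 10 probe sets most like them in the middle and the 3 most opposed at the bottom. The column of estrogen array 2 is red for all 10 of the most alike, with readings such as 254.3 for CAMK4 and 244.7 for PTK2B, and blue for MME at 35. The mean level of the cerebellar genes, used for the ranking, was itself highest on that array.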

How the data were processed

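Biotin-labelled total RNA was hybridized to a human Affymetrix array, per the labels' protocols. The authors deposited 1 linear intensity for each probe set; from the values, each array had been scaled to a trimmed mean of 200.1 (2% trimmed at each end). Neither labels nor headers state the summary method or its software. Symbols came from the platform's probe table, under which 10943 probe sets carried a single one, 545 several and 1070 none. The 67 array controls stayed out of the tests. Intensities were turned into log2(intensity + 8.26), the offset being the pooled 10th percentile, which understates changes of dim probe sets. Array medians spanned 0.20 on this scale, above the limit of 0.15, so arrays were quantile normalized. The dimmest 40% of probe sets (5023) were left out. Group means were fitted with limma 3.58.1 in R 4.3.3 over all 12 arrays, 2-sided, with Benjamini-Hochberg adjustment over 7535 probe sets at 0.05, and the fit was tested on simulated data. Standard errors and 95% intervals come from this fit. The number of arrays, 3 per group, limits the precision. Each gene stood in lists by its brightest tested probe set. The genes and the gene lists were chosen with earlier results of these data known. Genes outside the 8 were named by fixed rules: the 10 highest and 3 lowest correlations with the 8, and listed genes whose group arrays did not overlap. Apart from these rules, GABRA6, ETV1, GRIN2C, UNC5C, ZIC2, MOBP and OLIG2 were named after their values were seen. SLC6A4, FEV and TPH1 were named as serotonin genes, also outside these rules. Same-numbered arrays of different groups are different monkeys. Their deviations from group means correlated at 0.407, 0.296 and 0.133 over the tested probe sets between both hormones and estrogen, so the numbers may pair those arrays, which comes from the data and not from a label. The values given for that comparison are from the fit without the block; with the number as a block the calls among the 8 genes did not change. In the other comparisons at least 1 pair lay under 0.1.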

Additional observations from a re-analysis of the deposited data

How the results depend on the processing

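No probe set of the 8 genes was called by limma in any of the 4 tested comparisons under any of the 27 alternative settings, and the lowest adjusted p over them was 0.445. Of 1165 refitted differences of single probe sets, 1160 stayed within 1 residual SD of the value reported, and 58 changed sign, 3 of them with a reported size of 0.25 or more. With 1 array left out at a time, the median over the 8 genes ran from 0.11 to 0.43 for estrogen against placebo, 0.09 to 0.26 for both hormones against progesterone, −0.29 to 0.07 for both hormones against estrogen, 0.02 to 0.26 for both hormones against placebo and −0.03 to 0.11 for progesterone against placebo. The low end came without both-hormones array 2, except for estrogen against placebo (without estrogen array 2) and progesterone against placebo (without progesterone array 1). The median of the other cerebellar genes ran from 0.01 to 0.19, −0.02 to 0.11, −0.09 to 0.05, −0.02 to 0.14 and −0.05 to 0.11 in the same order of comparisons.

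Few probe sets were called at all, and these counts moved with the setting. Both hormones against progesterone had 1 call, and 6 with no filter, 3 with the lowest 20% left out, 0 with the lowest 60% left out, 2 with a trended and robust fit, 12 with array weights and 3 with only the groups compared. Both hormones against placebo had 1 call, and 2 as deposited, 0 with no filter, 0 with the lowest 60% left out, 2 with array weights, 0 without the high-ribosomal arrays, and 0 with only the groups compared. Progesterone against placebo had 3 calls, and 1 as deposited, 5 with no filter, 6 with the lowest 20% left out, 1 with the lowest 60% left out, 6 with array weights and 11 without the arrays of high ribosomal signal. Leaving out 1 array gave 0 to 3, 0 to 2 and 0 to 6 calls in these comparisons, 0 to 2 for both hormones against estrogen and 0 for estrogen against placebo. Without the arrays of high ribosomal signal the other cerebellar genes had a median of 0.11 for both hormones against progesterone. Without estrogen array 2 and both-hormones array 2 together, an alternative chosen after seeing the data, there was 1 call for both hormones against estrogen, 0 for both hormones against placebo and 1 for progesterone against placebo, and the other cerebellar genes had a median of −0.02 for both hormones against placebo. The cause of these shifts was not tested.

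With the replicate block, which pairs arrays by their number, there were 0 calls for both hormones against progesterone and 0 for progesterone against placebo. With the block and only the groups compared, also chosen after seeing the data, there were 0 calls for both hormones against progesterone, both hormones against placebo and progesterone against placebo. The block changed no call among the 8 genes and left their medians as reported. Of 12 arrays, 5 correlated best with an array of their own number, so most did not. The dim PVALB and ITPR1 probe sets lay close to the background of the array, and 3 arrays a group limit what could be detected.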
